A study of Mus musculus with 6 samples.

Results

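The 48 genes described here act in the G2 phase and mitosis of the cell cycle. They were chosen by symbol in the authors' deposited table, which held a row for each of the 48 among its 16448 genes, and all 48 passed the filter on low counts among 13039 genes tested. Their products bring the cell into mitosis, build the spindle, attach and check the chromosomes, separate the sister chromatids and divide the cell. In these thymocytes nearly all of the 48 RNAs were lowest in the same library, and that library, the farthest from the rest, was 1 of the controls. WT replicate 1 had the lowest level of 47 of the 48, with a median 0.78 below the mean of the other 5 libraries on the log2 scale. Between the genotypes, 0 of the 48 passed the test, which only 5 of all 13039 genes tested (0.0383%) did.

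Dividing cells make most of these RNAs in a pulse: transcription rises in G2, peaks around mitosis, and the products are destroyed or dispersed when the cell returns to G1. In the thymus, the main burst of division comes when precursors that have made a T cell receptor beta chain become CD4+CD8+ double-positive cells; these large blasts then leave the cycle and become the small, resting double-positive cells that rearrange the alpha chain. RNA levels of mitotic genes in a double-positive sort therefore follow how many cells are still cycling as well as what each of them transcribes. In bulk RNA, fewer cells of a type and less RNA per cell cannot be told apart.

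RNA was sequenced from CD4+CD8+ thymocytes sorted from C57BL/6 mice in 2 groups of 3 libraries. The KO libraries came from mice with both Mettl14 alleles floxed and a CD4-Cre transgene (Mettl14fl/fl; CD4-Cre+), in which the Cd4 promoter drives the recombinase in T lineage cells. The WT libraries came from littermate controls, labelled WT with no further alleles or transgenes given. Age, sex and the number of animals behind a library are not given in the labels, so p-values measure the spread between libraries, which may be partly technical. Mettl14, whose product pairs with Mettl3 to write N6-methyladenosine on RNA, was at 42.2, 40.3 and 36.4 CPM (each count scaled to its library's TMM-adjusted size) in KO replicates 1 to 3, against 52.1, 58.8 and 55.8 CPM in WT replicates 1 to 3. Each KO library was lower than each WT library, and with a log2 fold change of -0.49 ± 0.086 (SE) Mettl14 did not pass over all genes (adjusted p = 0.289, edgeR). The exons between the loxP sites are not named in the labels. Counts in genes ranged from 29500254 to 33377056 per library, and the deepest library was WT replicate 1. Genes of the double-positive stage, such as the recombinase gene Rag1 at 4589 to 5308 CPM, were abundant in all 6 libraries. WT replicate 1 stood apart in the mitosis genes, so the comparison of the 48 genes between genotypes and the medians of the cell cycle lists are also given without it. It was left out because it was low in most of these genes, so the WT mean without it is higher by construction. Values without it show how far a comparison rests on this library and are no separate evidence of a difference.

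Transcription of G2 and mitosis genes is known to be timed by a short promoter element, the cell cycle genes homology region (CHR, letters TTTGAA). In resting cells the DREAM complex binds it to keep the genes silent, and in cycling cells B-Myb and FoxM1 act through it. NF-Y, which binds CCAAT boxes upstream, is needed for full activity. RefSeq promoter windows on GRCm38.p6, running from 250 bases before to 50 bases after the annotated start, were matched by symbol for 41 of the 48 genes and gave 43 windows, because 2 genes have 2 starts. Aurkb, Ccna2, Cdc25c, Incenp, Kif20a, Smc4 and Tpx2 had no window in that table. The letters TTTGAA on either strand were in 33 of the 43 windows (76.7%), in 1451 of the 12078 windows of tested genes and in 17.9% of all 32851 windows. CCAAT on either strand was in 32 of the 43 (74.4%), against 38.1% of the windows of tested genes and 37.4% of all windows. Both motifs were in 28 of the 43 windows (65.1%), against 5.04% of the windows of tested genes. Their letters can share bases, and in Cdca8 a CHR match ends at base 19 after the start, where a CCAAT match begins. Matches of TTTGAA lay near the start: 30 of the 43 windows (69.8%) had one beginning between 50 bases before and 50 bases after it, against 3.15% of the windows of tested genes. A match is a string of letters, and binding was not measured here.

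The windows below were chosen to show this layout in cyclin, checkpoint, spindle and chromosome genes, from 190 bases before to 30 bases after the start, 5′ to 3′ on the gene's strand. Capitals mark CHR letters (TTTGAA, or TTCAAA where it lies on the other strand) and CCAAT boxes (CCAAT, or ATTGG on the other strand). Pttg1 is shown because its RNA did not follow the other members. Neither motif is in its window, nor in those of Birc5, Mad2l1, Ncaph, Nuf2 and Nusap1. Those genes had log2 differences in WT replicate 1 from -0.94 (Nusap1) to -0.66 (Ncaph). The printed Pttg1 window lies inside the annotated gene, whose 5′ end is at base 43426251.
Ccnb2, chr9:70421525-70421744, minus strand: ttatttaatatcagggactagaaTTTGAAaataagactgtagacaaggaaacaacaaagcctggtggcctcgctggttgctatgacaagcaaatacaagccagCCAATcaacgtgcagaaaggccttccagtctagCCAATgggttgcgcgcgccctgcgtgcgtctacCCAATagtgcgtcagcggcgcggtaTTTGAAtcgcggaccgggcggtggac
Cdk1, chr10:69352883-69353102, minus strand: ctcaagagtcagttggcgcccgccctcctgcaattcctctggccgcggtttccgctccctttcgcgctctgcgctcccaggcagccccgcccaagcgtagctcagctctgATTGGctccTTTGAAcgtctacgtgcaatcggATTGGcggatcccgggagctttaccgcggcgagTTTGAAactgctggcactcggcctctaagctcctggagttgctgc
Cdc20, chr4:118437314-118437533, minus strand: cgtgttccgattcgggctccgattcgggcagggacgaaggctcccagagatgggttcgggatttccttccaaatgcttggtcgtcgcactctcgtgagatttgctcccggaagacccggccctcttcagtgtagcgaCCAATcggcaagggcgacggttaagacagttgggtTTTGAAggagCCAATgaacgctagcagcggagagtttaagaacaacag
Cenpf, chr1:189688057-189688276, minus strand: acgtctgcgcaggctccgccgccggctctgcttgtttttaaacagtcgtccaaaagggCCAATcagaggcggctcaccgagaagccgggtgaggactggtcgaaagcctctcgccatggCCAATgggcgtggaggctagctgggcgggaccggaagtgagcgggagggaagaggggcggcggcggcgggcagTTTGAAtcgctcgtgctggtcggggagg
Aspm, chr1:139454583-139454802, plus strand: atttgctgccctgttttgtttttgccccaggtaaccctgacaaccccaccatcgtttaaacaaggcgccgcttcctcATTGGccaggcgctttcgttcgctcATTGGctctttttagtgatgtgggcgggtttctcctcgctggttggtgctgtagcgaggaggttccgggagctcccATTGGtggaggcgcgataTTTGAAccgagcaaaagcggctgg
Kif11, chr19:37376192-37376411, plus strand: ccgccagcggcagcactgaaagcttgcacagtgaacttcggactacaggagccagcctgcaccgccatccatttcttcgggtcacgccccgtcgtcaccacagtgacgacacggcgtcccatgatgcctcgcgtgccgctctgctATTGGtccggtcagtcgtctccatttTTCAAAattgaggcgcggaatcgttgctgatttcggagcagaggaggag
Top2a, chr11:99024160-99024379, minus strand: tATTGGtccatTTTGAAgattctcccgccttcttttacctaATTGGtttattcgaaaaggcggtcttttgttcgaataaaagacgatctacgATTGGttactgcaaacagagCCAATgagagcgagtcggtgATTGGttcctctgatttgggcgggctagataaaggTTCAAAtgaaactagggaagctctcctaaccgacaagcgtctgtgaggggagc
Mki67, chr7:135716350-135716569, minus strand: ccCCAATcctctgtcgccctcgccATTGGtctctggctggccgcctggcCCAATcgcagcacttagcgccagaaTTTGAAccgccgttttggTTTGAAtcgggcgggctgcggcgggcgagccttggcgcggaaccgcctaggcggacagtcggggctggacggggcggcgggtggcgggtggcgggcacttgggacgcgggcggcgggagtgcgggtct
Pttg1, chr11:43425952-43426171, minus strand: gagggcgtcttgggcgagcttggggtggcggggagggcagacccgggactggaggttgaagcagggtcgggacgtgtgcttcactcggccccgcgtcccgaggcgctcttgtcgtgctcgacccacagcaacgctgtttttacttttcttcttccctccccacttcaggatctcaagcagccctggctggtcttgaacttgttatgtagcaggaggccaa
In Ccnb2, which encodes cyclin B2, 3 CCAAT boxes begin 87, 54 and 21 bases before the start, and the CHR letters begin 167 bases before it and at base 5 after it. In Cdk1 the CHR letters begin 71 and 15 bases before the start, in Cdc20 18 bases before it, and in Kif11 19 bases before it on the other strand. In Cenpf and Aspm they begin at bases 3 and 7 after the start. Top2a has them 179 and 23 bases before the start, and Mki67 has them 116 and 98 bases before it.

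**Figure D1:**
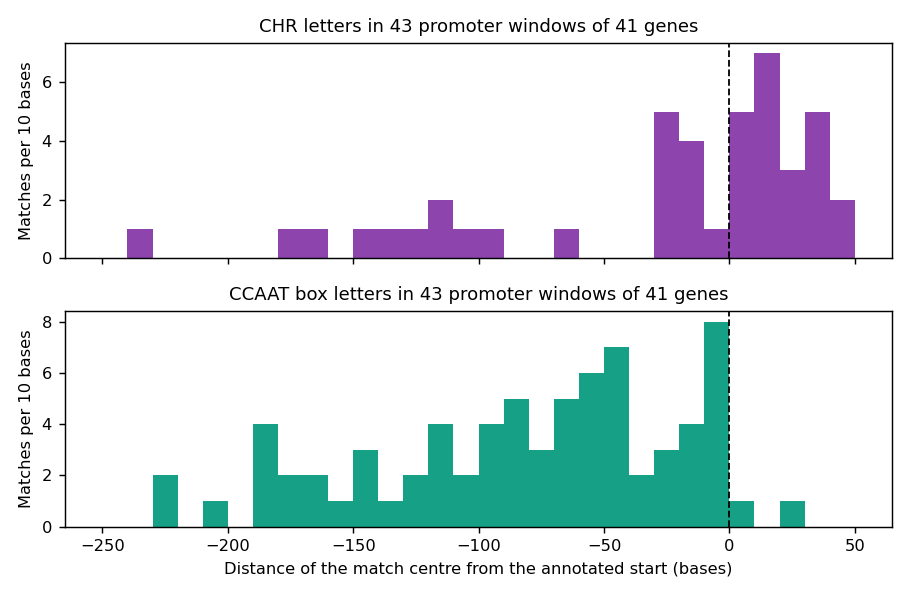
Positions of CHR letters (upper panel) and CCAAT box letters (lower panel) in 43 promoter windows of 41 mitosis and G2 genes, as matches per 10 bases against the distance of the match centre from the annotated start (dashed line). CHR matches gather on both sides of the start, with 30 of the 43 windows holding one within 50 bases of it, and CCAAT matches lie upstream except for 1 in Ect2 and 1 in Cdca8.

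The first question was how the mitosis genes differed between libraries. Summed over the 48 genes, the level was 15805, 11976 and 14372 CPM in KO replicates 1 to 3, against 8671, 14697 and 16809.9 CPM in WT replicates 1 to 3. WT replicate 1 had the smallest sum, and KO replicate 2 the next. Taken gene by gene as log2 CPM minus the gene's own mean, the median of the 48 was 0.23, -0.15 and 0.10 in KO replicates 1 to 3, against -0.65, 0.13 and 0.31 in WT replicates 1 to 3. The KO values lay inside the range of the WT values.

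The 2 lowest libraries hardly changed from gene to gene, while the order of the others varied. WT replicate 1 was the lowest library for 47 of the 48 genes, where it was the lowest for 25.8% of all genes tested. KO replicate 2 came second lowest in the same 47, an order of these 2 libraries seen in 9.29% of genes tested. The highest library was WT replicate 3 for 37 genes, KO replicate 1 for 9, and WT replicate 2 and KO replicate 3 for 1 each. The full order of the medians, from WT replicate 1 through KO replicate 2, KO replicate 3, WT replicate 2 and KO replicate 1 up to WT replicate 3, was met exactly by 14 of the 48 genes and by 0.729% of genes tested. In 46 of the 48, every library lay within 0.3 of the median of the 48 for that library on the log2 scale; the exceptions were Pttg1 and Smc4. For 46 genes WT replicate 1 was more than 0.5 below the mean of the other 5, which held for 7.37% of genes tested. A single library has no replicate, so this contrast has no test.

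**Figure D2:**
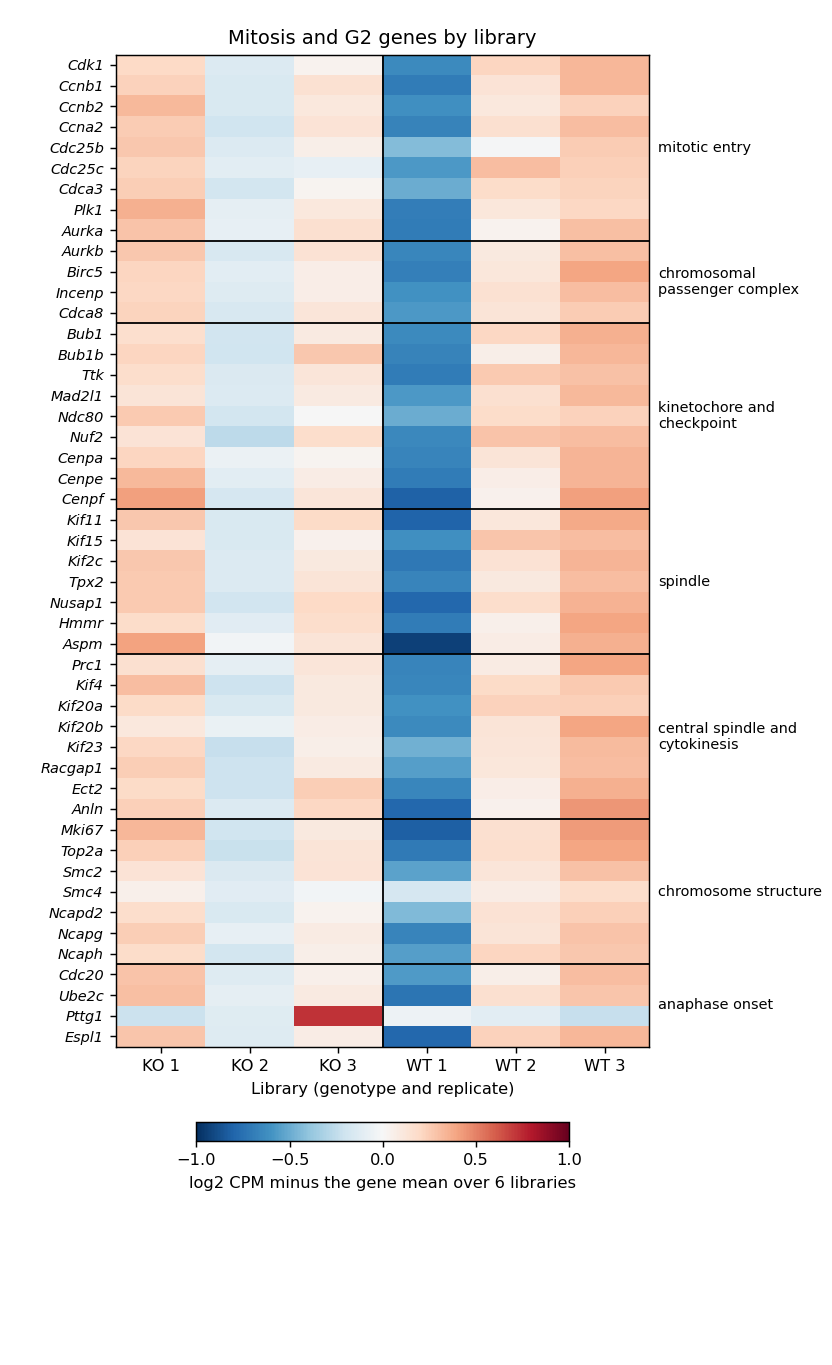
Level of each of the 48 genes in each of the 6 libraries, as log2 CPM minus the gene's mean over the libraries (colour), with genes grouped by role and the KO libraries left of the WT libraries. The column of WT replicate 1 is blue for nearly every gene, with Smc4 pale, KO replicate 2 is pale blue, and Pttg1 shows only KO replicate 3 high.

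Genes that bring the cell into mitosis were 9 of the 48, and WT replicate 1 lay 0.52 to 0.84 below the other 5 libraries for them on the log2 scale. Ccna2 encodes cyclin A2, which drives S phase and G2 with Cdk2 and Cdk1. It was at 440.0, 322 and 406 CPM in KO replicates 1 to 3, against 233, 413 and 456 CPM in WT replicates 1 to 3. The KO values lay within the WT range, and the log2 fold change was 0.086 ± 0.24 (SE; adjusted p = 0.953, edgeR). Plk1, a kinase needed for centrosome maturation and entry into mitosis, was at 199, 146 and 167 CPM in KO, against 95.9, 168 and 179 CPM in WT. KO replicate 1 lay above all WT libraries and the other KO libraries inside their range. Plk1 had the lowest p of this group (log2 fold change 0.21 ± 0.22, SE; adjusted p = 0.865, edgeR), and its log2 fold change was -0.019 without WT replicate 1. Cdca3, which takes part in the destruction of the Cdk1 inhibitor Wee1, was at 292, 217 and 252 CPM in KO, against 175, 281 and 288 CPM in WT, with KO replicate 1 just above the WT range (log2 fold change 0.033 ± 0.19, SE; adjusted p = 0.980, edgeR). Cdk1 itself, the kinase of mitosis, and its partners Ccnb1 and Ccnb2 were 41.6%, 44.5% and 40.2% lower in WT replicate 1 than in the mean of the other 5 libraries. The phosphatase genes Cdc25b and Cdc25c, whose products switch Cdk1 on, were 30.7% and 38.4% lower there. Aurka, the kinase of the spindle poles, was 44.3% lower. With a log2 difference of -0.52, Cdc25b moved least of the 9.

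The 4 genes of the chromosomal passenger complex, which corrects faulty attachments and later organises the midzone, moved almost as 1 unit. In this group WT replicate 1 lay 0.69 to 0.82 below the other 5 libraries (log2). Aurkb, its kinase, was at 191, 142 and 175 CPM in KO, against 101, 169 and 195 CPM in WT. Birc5 (survivin), the subunit that reads a histone mark at the centromere, was at 224, 179 and 202 CPM in KO, against 120.3, 209 and 254 CPM in WT. Incenp, the scaffold, was at 378, 301 and 344 CPM in KO, against 216, 363 and 405 CPM in WT. In all 3 the KO libraries lay inside the WT range. The log2 fold changes were 0.13 (SE 0.23) for Aurkb, 0.054 (SE 0.24) for Birc5 and 0.055 (SE 0.21) for Incenp, with edgeR adjusted p-values of 0.926, 0.973 and 0.969. Cdca8 (borealin), the remaining subunit, was 38.2% lower in WT replicate 1 than in the other 5.

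Of the 9 genes of the kinetochore and the spindle checkpoint, WT replicate 1 was lowest for all 9, by 0.60 to 0.97 (log2). Bub1b encodes the checkpoint protein BubR1, which restrains the anaphase-promoting complex until chromosomes are attached. It was at 383, 286 and 396 CPM in KO, against 207, 343 and 415 CPM in WT, with a log2 fold change of 0.14 ± 0.24 (SE; adjusted p = 0.919, edgeR). Cenpf, a large protein that joins the outer kinetochore in G2, was at 378, 253 and 309 CPM in KO, against 162, 292 and 377 CPM in WT. WT replicate 1 was 49.6% below the mean of the other 5 libraries for Cenpf, the widest gap of this group, and KO replicate 1 was just above WT replicate 3. The log2 fold change of Cenpf was 0.18 (SE 0.28, edgeR adjusted p = 0.915). The checkpoint kinases Bub1 and Ttk were 41.4% and 44.4% lower in WT replicate 1. The motor Cenpe was 44.4% lower, and the centromeric histone Cenpa 42.5%. Ndc80 and Nuf2, which together hold microtubules, were 34.4% and 41.9% lower, and Mad2l1, the checkpoint protein Mad2, 38.2%.

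Spindle genes had the lowest group median, -0.85. Across the 7, WT replicate 1 lay 0.74 to 1.12 below the other libraries (log2), with Aspm at the far end of all 48. Aspm encodes a protein of the spindle poles whose human gene is known from microcephaly. It was at 247, 184 and 205 CPM in KO, against 98.2, 197 and 241 CPM in WT; WT replicate 1 was 54.3% below the other 5, and KO replicate 1 was the highest of the 6. Its log2 fold change was 0.25 ± 0.29 (SE; adjusted p = 0.879, edgeR), and -0.045 without WT replicate 1. Kif11 (Eg5), the motor that pushes the poles apart, was at 724, 539 and 683 CPM in KO, against 344, 649 and 782 CPM in WT (log2 fold change 0.13 ± 0.27, SE; adjusted p = 0.938, edgeR). The KO libraries were inside the WT range for Kif11, and WT replicate 1 was 49.0% lower than the other 5. Tpx2, which activates Aurora A and nucleates microtubules, was at 356, 269 and 325 CPM in KO, against 187, 316 and 368 CPM in WT, again with KO inside the WT range (log2 fold change 0.13 ± 0.23, SE; adjusted p = 0.927, edgeR). Nusap1, Kif2c, Hmmr and Kif15, which bundle, shorten, anchor or slide spindle microtubules, were 48.3%, 45.1%, 44.4% and 40.4% lower in WT replicate 1.

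In the 8 genes of the central spindle and of cytokinesis, WT replicate 1 was lower by 0.57 to 0.94 (log2). Racgap1, a subunit of centralspindlin, was at 327, 239.9 and 294 CPM in KO, against 188, 299.8 and 341 CPM in WT. Prc1, which bundles the midzone microtubules, was at 303, 256 and 294 CPM in KO, against 171, 287 and 356 CPM in WT. Anln (anillin), the scaffold of the contractile ring, was at 129.8, 100.1 and 127 CPM in KO, against 63.9, 113 and 149 CPM in WT. For these 3 genes all KO libraries lay between the lowest and highest WT library, with log2 fold changes of 0.055 (SE 0.21), 0.068 (SE 0.23) and 0.13 (SE 0.27) and edgeR adjusted p-values of 0.969, 0.965 and 0.940. Kif23, the motor of centralspindlin, was 33.3% lower in WT replicate 1 than in the other 5, and Ect2, which turns on RhoA for furrowing, 42.5%. The motors Kif4, Kif20a and Kif20b were 42.4%, 39.9% and 41.6% lower.

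Among the 7 genes that shape chromosomes, WT replicate 1 was lower by 0.20 to 0.98 (log2). Mki67, the proliferation marker that coats mitotic chromosomes, was at 2158, 1487 and 1834 CPM in KO, against 970.1, 1907 and 2299.8 CPM in WT. Top2a, the topoisomerase that untangles sister chromatids, was at 1887, 1369 and 1752 CPM in KO, against 979, 1801 and 2102 CPM in WT. For both, the lowest and the highest of the 6 libraries were WT libraries, with the KO values between them. The log2 fold changes were 0.082 (SE 0.29, edgeR adjusted p = 0.967) for Mki67 and 0.037 (SE 0.26, edgeR adjusted p = 0.983) for Top2a. The condensin subunits, which compact chromosomes, ran from Ncapg, 42.4% lower in WT replicate 1 than in the other 5, through Ncaph at 37.1%, Smc2 at 36.4% and Ncapd2 at 31.1%, to Smc4 at 13.3%. Ncapg was at 185, 148 and 166 CPM in KO, against 99.0, 171 and 190.3 CPM in WT (log2 fold change 0.11, SE 0.22, edgeR adjusted p = 0.935). Smc4, an ATPase core subunit of both condensins, was at 966, 864 and 915 CPM in KO, against 829, 983 and 1051 CPM in WT. WT replicate 1 and KO replicate 2 were again the lowest libraries, but the whole range was narrow, the KO libraries lay inside the WT range, and Smc4 had the smallest SE of the 48 (log2 fold change -0.061 ± 0.097, SE; adjusted p = 0.915, edgeR).

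The last 4 genes act at the start of anaphase. Ube2c, a ubiquitin-conjugating enzyme of the anaphase-promoting complex, was at 264, 202 and 229 CPM in KO, against 129, 240.0 and 259.9 CPM in WT. Cdc20, the activator of that complex, was at 225, 169 and 191 CPM in KO, against 125, 192 and 228 CPM in WT. KO replicate 1 was the highest library for Ube2c, and for Cdc20 KO lay inside the WT range. The log2 fold changes were 0.14 (SE 0.24) and 0.10 (SE 0.21), with edgeR adjusted p-values of 0.919 and 0.938. Espl1 (separase), the protease that cuts cohesin, was 48.3% lower in WT replicate 1 than in the other 5. Pttg1 (securin), the inhibitor of separase, went its own way: it was at 18.3, 19.6 and 35.1 CPM in KO, against 20.6, 19.9 and 18.2 CPM in WT. KO replicate 3 was high, and the other 5 libraries lay between 18.2 and 20.6 CPM. Pttg1 had the largest fold change of the 48 (log2 0.32 ± 0.24, SE; adjusted p = 0.813, edgeR), and without KO replicate 3 it was -0.041. Its lowest count, 532 in WT replicate 3, was also the lowest of the set.

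**Figure D3:**
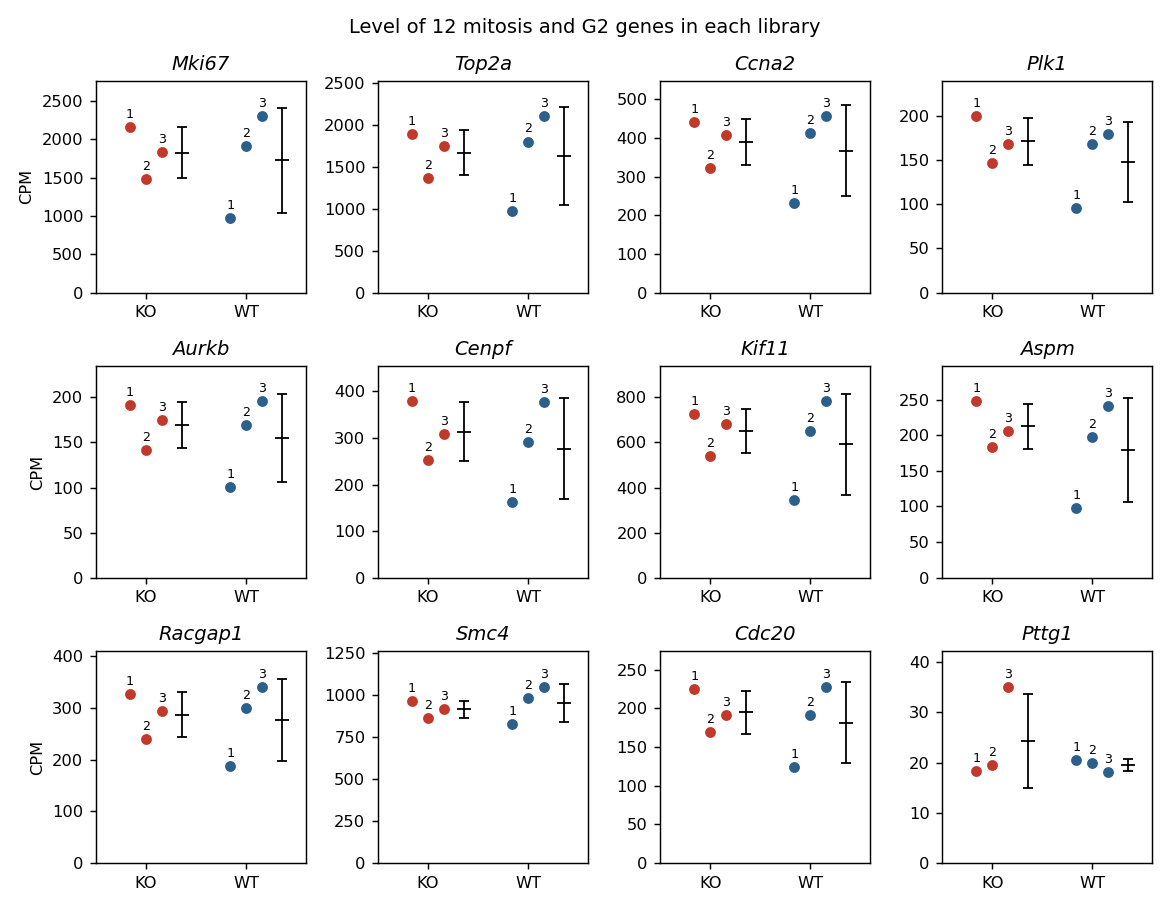
CPM of 12 of the genes in each library (numbered points, replicate 1 to 3), KO in red and WT in blue, with the mean and SD of each group of 3 in black and axes starting at 0. WT replicate 1 is the lowest point in every panel but that of Pttg1, where KO replicate 3 is at 35.1 CPM and the other libraries are at 18.2 to 20.6 CPM.

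Levels of different genes were compared per length, as CPM per kilobase of exon in GENCODE vM21, averaged over the 6 libraries. Top2a (183 ± 45.0, SD over 6 libraries), Smc4 (179 ± 15.7) and Mki67 (177 ± 48.2) led the order and differed by less than their spread. Ccnb2 (145 ± 30.4) and Ncapd2 (131 ± 21.7) came next. The lowest were Pttg1 (10.97 ± 3.27), Ttk (10.4 ± 2.33) and Cdc25c (7.80 ± 1.63), and the median of the 48 was 35.7 CPM per kilobase. The deposited gene lengths were not used for this, since for 5 of the 48 genes they exceed the distance from the gene's first to its last base; Prc1, for instance, is given 25647 bases of length over a span of 21810 bases.

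The second question was whether Mettl14 deletion changed these genes. Over the 13039 genes tested, edgeR called 5 (0.0383%) and 0 of the 48, with 0 at an unadjusted p under 0.05, where 6.72% of genes tested had one. The lowest adjusted p was that of Pttg1. DESeq2 called 0 of the 48 (0.675% of genes tested) and limma-voom 0 (0.0537%), again with 0 at an unadjusted p under 0.05 for either (6.84% and 6.82% of genes tested). In the table the authors deposited, none of the 48 had an adjusted p under 0.05 (0.717% of its genes), and the lowest in the authors' deposited table was 0.967. The KO and WT libraries overlapped for all 48 genes; they did not for 12.6% of genes tested. The mean was higher in KO for 42 of the 48 and lower for 6, against 48.9% higher among genes tested, and the median log2 fold change was 0.084, against -0.0040 over genes tested. The direction depends on single libraries: without KO replicate 1 the median was -0.0089. Without WT replicate 1, 47 of the 48 were lower in KO, where 49.7% of genes tested were, and the median was -0.16. In that fit 0 were called (0.0605% of genes tested). Kif15, Kif20b, Cdk1 and Bub1, 4 in all, had an unadjusted p under 0.05, where 7.8% of genes tested had one. This library was the lowest for 47 of the 48, so a downward shift without it was fixed in advance.

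The test left wide limits. The 95% interval of the fold change included no change for all 48. It was widest at the top for Aspm, where it reached 1.88-fold higher in KO, and lowest at the bottom for Mki67, at 0.667 of the WT level. Smc4 was bounded most tightly, between 0.820 and 1.12 of the WT level. The counts of 0 do not show that the genotypes were alike.

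**Figure D4:**
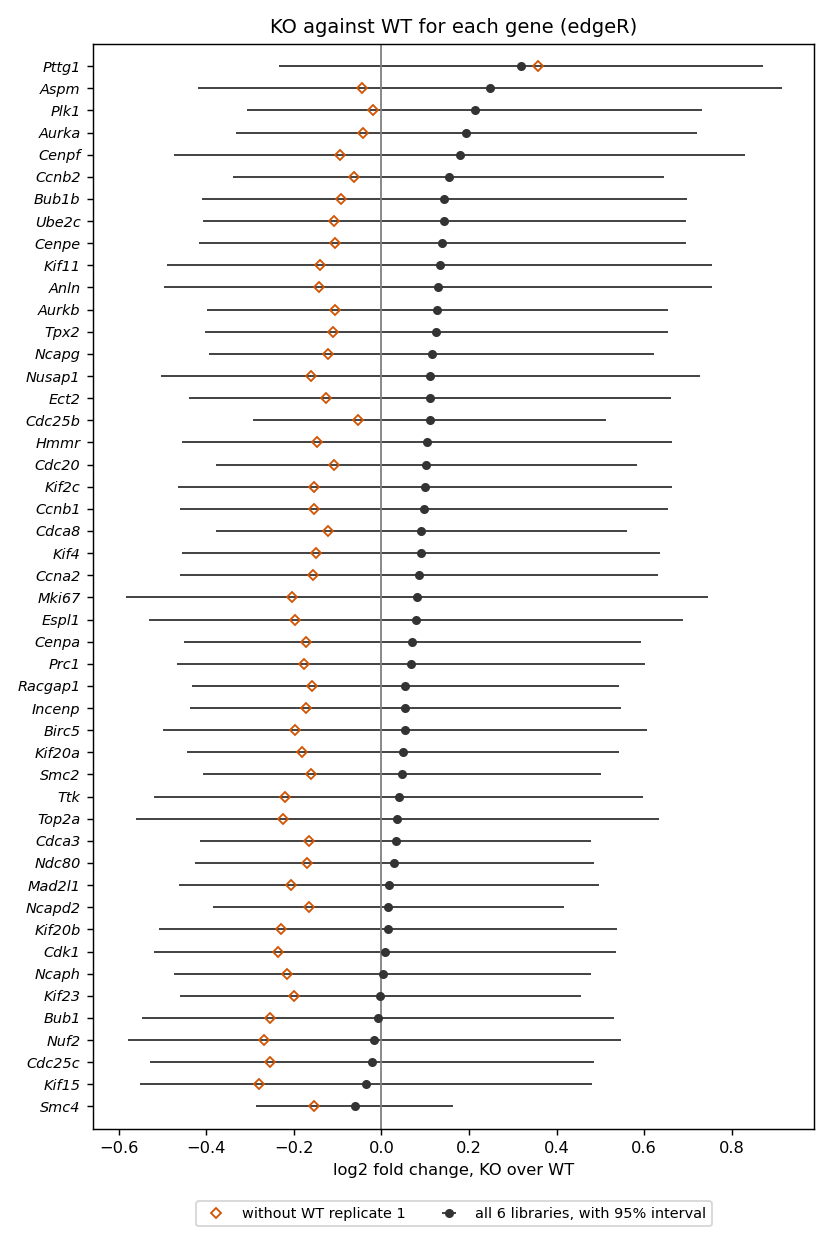
Log2 fold change, KO over WT, of each of the 48 genes from edgeR with all 6 libraries (black points, with 95% intervals) and without WT replicate 1 (open orange diamonds). All 48 intervals cross 0; 42 black points lie above 0, and 47 diamonds lie below it, the exception being Pttg1.

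Other genes of the cell cycle were then set beside the 48, each list described by counts and medians. Of 55 further G2 and mitosis genes, such as Dlgap5, Nek2 and Kif14, WT replicate 1 was lowest for 54, with a median log2 difference from the other 5 libraries of -0.68. Of these 55, 0 were called (0.0383% of genes tested). A higher mean in KO was found for 40 of them and for 48.9% of genes tested. Their median log2 fold change was 0.077, and -0.14 without WT replicate 1. By p, the first 2 were Zwint (log2 fold change -0.11, SE 0.063) and Wee1 (0.21, SE 0.22). TTTGAA was in 47.8% of the 46 promoter windows found for this list, and began within 50 bases of the start in 34.8%. CCAAT was in 71.7% of them, near the share in the 48 genes.

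Genes of S phase, which copy the DNA before mitosis, shared part of the pattern. WT replicate 1 was lowest for 28 of 30, with a median log2 difference of -0.47. All 30 had a lower mean in KO (median log2 fold change -0.11), where 48.9% of genes tested had a higher one. Of the 30, 0 were called (0.0383% of genes tested), with 1 at an unadjusted p under 0.05 (6.72% of genes tested). Gins2, a subunit of the replicative helicase, was at 18.7, 20.6 and 21.6 CPM in KO, against 21.3, 29.5 and 29.8 CPM in WT (log2 fold change -0.40, SE 0.15, edgeR adjusted p = 0.713), and Rpa2 was at -0.19 (SE 0.14). Without WT replicate 1, 29 of the 30 had an unadjusted p under 0.05, as did 7.8% of genes tested in that fit. Of the 48 mitosis genes, 4 did. The median of the S phase genes was then -0.32, with 0 called (0.0605% of genes tested). WT replicate 1 was the lowest library for 28 of the 30, so leaving it out lowers these fold changes by construction. The median of the mitosis genes minus that of the S phase genes was 0.31, -0.07 and 0.08 in KO replicates 1 to 3, against -0.26, -0.15 and 0.06 in WT replicates 1 to 3 (log2), and the groups overlapped. The S phase promoters had TTTGAA in 3 of 25 windows, CCAAT in 18 and E2F letters in 18 (TTCCCGC, counting also TTGGCGC, as well as TTCGCGC, and lastly TTGCCGC, each on either strand), where E2F letters were in 23.3% of the 43 windows of the mitosis genes and 16.8% of those of tested genes.

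Regulators moved unevenly. Foxm1, the factor that drives G2 genes, was at 363, 270.0 and 312 CPM in KO, against 184, 330 and 390 CPM in WT, the same order of libraries as the medians of the 48. Mybl2, which encodes B-Myb, was at 60.8, 47.7 and 53.3 CPM in KO, against 41.8, 70.5 and 66.7 CPM in WT. These 2 were named for their link to the CHR and not by p. Over the 18 transcription factors of the cell cycle, WT replicate 1 was lowest for 11 and the median log2 fold change was -0.0097. Of the 18, 0 were called (0.0383% of genes tested) or had an unadjusted p under 0.05 (6.72% of genes tested). Without WT replicate 1 the median was -0.16, with 12 of the 18 lower in KO and 4 at an unadjusted p under 0.05. In that fit 49.7% of genes tested were lower and 7.8% had such a p. By p in all 6 libraries, E2f2 (1.01, SE 0.49) and Nfya (0.25, SE 0.13) came first. E2f2 was at 1051, 3573 and 841 CPM in KO, against 777, 944 and 991 CPM in WT, so that 1 library, KO replicate 2, carried its difference. Of 13 G1 cyclins, kinases and inhibitors tested, 0 were called, and WT replicate 1 was lowest for 8. A higher mean in KO was found for 10 (median log2 fold change 0.048) and for 48.9% of genes tested. Without WT replicate 1, 6 of the 13 were higher and 7 lower in KO (49.7% of genes tested were lower). The median was then -0.079, with 3 at an unadjusted p under 0.05 (7.8% of genes tested). Cdkn1a, the inhibitor p21, was at 2.55, 1.39 and 1.46 CPM in KO, against 0.702, 0.515 and 0.752 CPM in WT. These rest on low counts, 77, 41 and 47 in KO and 24, 17 and 22 in WT. The log2 fold change of 1.45 (SE 0.34) missed the threshold (edgeR adjusted p = 0.488). Ccnd2, cyclin D2, had a log2 fold change of 0.80 (SE 0.29). The groups did not overlap for 2 of the 13, Cdkn1a and Ccnd2, and for 12.6% of genes tested. Of 18 genes of the anaphase-promoting complex and mitotic exit, most of which are not confined to mitosis, WT replicate 1 was lowest for 9, the median difference was -0.10, and 0 were called. Their median log2 fold change was -0.011, and without WT replicate 1 it was -0.061, with 15 of the 18 lower in KO (49.7% of genes tested). In that list, Anapc2 (-0.10, SE 0.062) and Ppp2r2a (0.10, SE 0.074) had the lowest p.

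**Figure D5:**
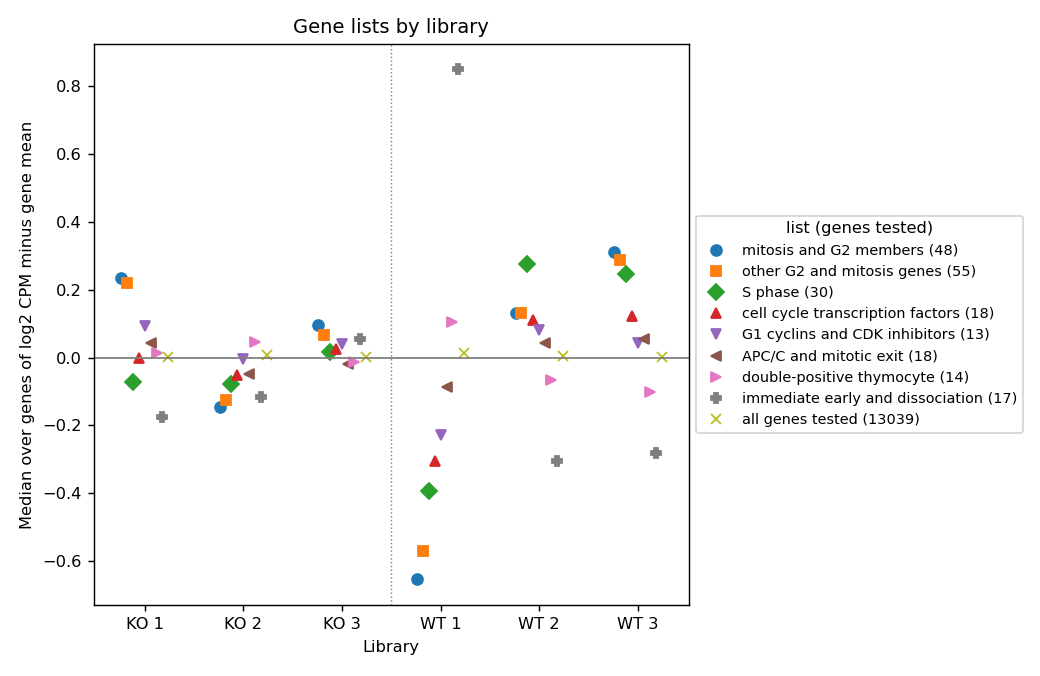
Median over each gene list of log2 CPM minus the gene's mean over the 6 libraries (y axis), by library, KO left of WT, with the number of genes tested in the legend. In WT replicate 1 the mitosis and G2 genes are at -0.65, S phase genes at -0.39 and immediate early genes at 0.85, while all genes tested have a median of 0.013.

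Other gene groups also set WT replicate 1 apart. Immediate early and dissociation-induced genes were highest in WT replicate 1 for 11 of 17 tested, which held for 27.7% of all genes tested. The median log2 difference of the 17 from the other 5 libraries was 1.02, within -0.96 to 4.22, and WT replicate 1 was lowest for 1 of them. Fos and Jun, picked as examples, lay far above that median. Fos was at 5.94, 3.76 and 2.54 CPM in KO, against 83.7, 7.69 and 3.93 CPM in WT, and Jun at 9.82, 11.8 and 8.71 CPM in KO, against 155, 16.6 and 7.75 CPM in WT. The summed level of the list was 1539, 1530.4 and 1754 CPM in KO, against 2169, 1313 and 1544 CPM in WT. Genes of the double-positive stage were highest in WT replicate 1 for 8 of 14, with a median log2 difference of 0.12 from the other 5, and summed to 19386 to 20294 CPM in KO, against 18505 to 20724 CPM in WT. Markers of double-negative cells and cycling precursors summed to 654 to 831 CPM in KO, against 551 to 603 CPM in WT, with WT replicate 1 lowest of the 6 and KO replicate 1 highest, while Cd34 and Gata2 had no counts in any library. Of 9 tested, 5 did not overlap between the groups (12.6% of all genes tested did not), Ptcra, Notch3, Notch1 and Dtx1 higher and Cd44 lower in KO, and 0 were called; these genes were named after their values were seen. For B cell markers, summed levels ranged from 799 to 845 CPM in KO, against 798 to 846 CPM in WT. The median of the 5 tested was taken as log2 CPM minus the gene mean. It was -0.070, 0.85 and 0.14 in KO, against -0.050, -0.28 and -0.41 in WT, so KO replicate 2 was high. Sums ranged from 100.2 to 132 CPM in KO, against 97.0 to 101 CPM in WT, for myeloid markers. For markers of stroma and endothelium they were 223 to 241 CPM in KO, against 250.4 to 251 CPM in WT, and for NK and gamma-delta markers 44.2 to 54.1 CPM in KO, against 28.9 to 43.7 CPM in WT. Only 4 of the 11 stroma and endothelium markers were tested. Their median, taken as for B cells, was -0.047, -0.086 and 0.19 in KO, against 0.077, 0.10 and -0.15 in WT, so it overlapped. The groups did not overlap for 1 of these 4, for 2 of 5 NK and gamma-delta markers and for 12.6% of genes tested. Of the red cell markers, 0 were abundant enough to test. An unadjusted p under 0.05 (edgeR) was found for 5 of 9 precursor markers, 3 of 5 NK and gamma-delta markers and 2 of 5 B cell markers. It was also found for 2 of 9 myeloid markers, 1 of 4 stroma and endothelium markers and 5 of 17 immediate early genes. Of the 14 double-positive genes, 0 had one, and 6.72% of genes tested did. The part of any of these lists in the mitosis gene pattern was not tested.

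Counting limits touch a few members. In 12 of the 48 the exons overlap those of a gene on the opposite strand, and the strand setting is not given; the largest overlap was that of Kif20a with Cdc23, over 29.3% of the exon bases of Kif20a. Near-identical transcripts of another gene (95% identity or more over at least 200 bases) exist for 6 members. Ccnb1 has the closest, the pseudogene Ccnb1-ps at 99.2% over 1287 bases, to which 49 counts were assigned in all. For Ndc80 the stretch shared with 2700099C18Rik is 95.05% identical over 303 bases, and that gene had 5918 counts in all, so the level of Ndc80 is uncertain.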

How the data were processed

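RNA from 6 libraries was measured. The submitters' processing notes name Trimmomatic 0.33, STAR 2.5.2, HTSeq, DESeq2 and build mm10. How reads were counted and whether strand was used is not given in the sources used here. The authors deposited raw counts per gene, per library and as a combined table with gene lengths and positions, and all 260580 values were equal between both forms. The deposited table of the authors' DESeq2 results holds a size-factor-scaled signal, log2 fold changes with p-values and a Wald score. Of these only the fold changes and p-values are quoted, as theirs. That table is labelled paired, so its design may differ from the unpaired fit used here, and the library labels do not say which libraries were paired. Tally lines without a gene name were left out of library sizes: 12.3% to 15.2% of a library had no feature, 22.6% to 23.9% aligned more than once and 0.653% to 0.701% were ambiguous. Of 43430 gene identifiers, 42462 matched the name table.

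Genes were tested with edgeR 4.0.16 in R 4.3.3 (TMM, filterByExpr by group, two-sided quasi-likelihood test with group as the only term, Benjamini-Hochberg adjustment over all genes, threshold 0.05). The SE was taken from the fold change and the F statistic, and 95% intervals use the moderated degrees of freedom. CPM are TMM-scaled; log2 CPM used a prior count of 2, except in the heat map, which has none. DESeq2 1.42.0 and limma 3.58.1 (voom) were alternatives, with other scalings, no filter, blocks and each library left out. The tests were run on simulated counts, where the direction of planted changes was checked. Those counts were drawn independently for each gene and library, so they do not check the tests under a library shift shared by many genes. Near-identical transcripts were sought with BLAST 2.17.0. Between replicates of a group, chi-square per degree of freedom over genes tested was 17.3 or more, above sampling noise. It was 42.0 and 56.8 for WT replicate 1 against WT replicates 2 and 3, and 17.3 to 28.1 for the other pairs.

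The members and lists were chosen with earlier results of these data known, so the lists carry no test. Values in every library are given for the 2 most abundant members of each of the 7 role groups and for those with the lowest p and the largest fold change, plus Mettl14, and from each pathway list the 2 genes with the lowest p are given; other genes are named as examples.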

Additional observations from a re-analysis of the deposited data

How the results depend on the processing

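In each of the 13 alternatives, 0 of the 48 mitosis and G2 genes were called, as in the main fit, where 0.0383% of genes tested were. The median log2 fold change of the 48, KO over WT, was 0.06 with upper-quartile scaling and 0.13 with limma-voom, and ran from -0.16 to 0.28 when 1 library was left out: leaving out WT replicate 1 gave -0.16, KO replicate 1 -0.0089, KO replicate 2 0.20 and WT replicate 3 0.28. The median log2 difference of WT replicate 1 from the other libraries stayed between -0.85 and -0.74 when 1 of those 5 was left out, and was -0.75 with upper-quartile scaling. Of the 21 named members, 19 changed sign when WT replicate 1 was left out, 8 for KO replicate 1, 1 for KO replicate 3 and 1 for WT replicate 3, and 0 under the other alternatives. With 1 library left out, their log2 fold changes ranged as follows: Ccna2 (-0.16 to 0.28), Cdca3 (-0.16 to 0.16), Plk1 (-0.019 to 0.38), Incenp (-0.17 to 0.24), Birc5 (-0.20 to 0.30), Aurkb (-0.11 to 0.33), Bub1b (-0.093 to 0.38), Cenpf (-0.094 to 0.47), Kif11 (-0.14 to 0.39), Tpx2 (-0.11 to 0.34), Aspm (-0.045 to 0.53), Racgap1 (-0.16 to 0.24), Prc1 (-0.18 to 0.32), Anln (-0.14 to 0.43), Mki67 (-0.20 to 0.35), Top2a (-0.23 to 0.27), Smc4 (-0.15 to 0.020), Ncapg (-0.12 to 0.30), Ube2c (-0.11 to 0.33), Cdc20 (-0.11 to 0.31) and Pttg1 (-0.041 to 0.49). Deviations of libraries with the same replicate number had correlations of -0.15, 0.08 and 0.19 for numbers 1, 2 and 3. Correlations over so few libraries cannot decide whether the numbers pair them. The authors' deposited results are labelled paired, while the library labels state no pairing, and the main fit here used none. With the replicate number as a block 0 of the 48 were called and the median log2 fold change was 0.12, and with a block that sets replicate 3 apart it was 0.10; each block called 5 genes in all. The lowest count of any of the 48 in any library was 532.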

Other observations

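The gap in WT replicate 1 was set beside the promoter letters. The 31 genes with TTTGAA had a median log2 difference of -0.79 from the other 5 libraries, within -1.12 to -0.53, and the 10 without it had -0.77, within -0.94 to -0.06. Those 10 were Birc5, Bub1, Ccnb1, Cdc25b, Cenpe, Mad2l1, Ncaph, Nuf2, Nusap1 and Pttg1. These values were looked up after the pattern was seen and carry no test.

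Among condensin subunits, Smc4 had a level per length of 179 CPM per kilobase, against 131 for Ncapd2, 43.8 for Ncaph, 43.1 for Smc2 and 22.6 for Ncapg, and the smallest gap in WT replicate 1. E2f2, a repressor and activator of cell cycle genes in T cells, reached 3573 CPM in KO replicate 2, against 777 to 1051 CPM in the other 5 libraries. KO replicate 2 was also the second lowest library, after WT replicate 1, for 47 of the 48 mitosis genes, where 9.29% of genes tested had that order. Whether the level of E2f2 and those of the mitosis genes in this library are linked was not tested.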
